A study of Mus musculus with 8 samples.

Results

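The 78 genes described here encode proteins of the mitochondrial ribosome. They are all protein-coding rows of the count table whose mouse symbol begins with Mrpl or Mrps followed by a number and whose counts over the 8 libraries sum to at least 80. No further row with such a symbol lay below that total, and all 78 also passed the filter on low counts, which left 17438 of the 40838 rows for testing. By symbol, 49 belong to the large subunit (Mrpl) and 29 to the small subunit (Mrps).

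The libraries were made from livers of C57BL/6 mice, an inbred laboratory strain, that ate a NASH diet, which produces nonalcoholic steatohepatitis, for 16 weeks. After 7 weeks each mouse received an adeno-associated virus, and the diet went on for 9 weeks. The Lpcat3 group (n = 4) received AAV-TBG-Lpcat3, and the control group (n = 4) received AAV-TBG-eGFP, which carries enhanced green fluorescent protein. TBG is a promoter active in hepatocytes, whereas the RNA came from whole liver. The age of the mice is not given. The diet and a viral injection were common to both groups, and no library came from an animal on normal chow or without virus. The labels do not state that each library is a separate animal, so p-values measure the spread between these libraries. The comparison asks how raised hepatic Lpcat3, the enzyme that puts polyunsaturated acyl chains into lysophospholipids, changes liver gene expression during steatohepatitis.

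Mitochondrial ribosomes translate the few mRNAs encoded by mitochondrial DNA, all of which are for core subunits of the respiratory chain and the ATP synthase. Their RNA is made inside the mitochondrion, while all of their proteins are encoded in the nucleus, made in the cytosol and imported. In liver, where hepatocytes are rich in mitochondria, loss of single ribosomal proteins impairs assembly of the respiratory complexes, and inherited defects of several of them cause combined oxidative phosphorylation deficiency.

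Library totals ran from 22433625 to 25651874 counts. Lpcat3 lay between 274 and 465 CPM (a gene's counts scaled to a common library size) in the Lpcat3 libraries and between 133 and 173 CPM in the eGFP libraries, without overlap, as the labels require. CPM values here use TMM factors, which are chosen on the assumption that most genes do not differ between libraries. Tissue markers fitted the label, since 6 of 6 hepatocyte markers, among them Alb and Ttr, were tested and summed to between 40295 and 80326 CPM. The libraries numbered 3 stood apart on the first principal component, eGFP replicate 3 at -46.1 and Lpcat3 replicate 3 at 51.0.

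Promoter sequences are shown first. Their letters are independent of the measured counts, but the choice of Mrpl39 and Mrps23 was not. The stretches shown are examples and do not represent the members as a whole. The 250 bases before the start site are given for Mrpl39, the member with the smallest p-value, for Mrps22 and Mrpl3, subunits linked to inherited disease, and for Mrps23, the member whose Lpcat3 libraries all lay below the eGFP libraries. These windows overlap no other gene in the table. They are RefSeq sequences of build GRCm38.p6, which is not the build of the deposited counts (GRCm39), written 5′ to 3′ in the direction of the gene, with capitals marking matches to the motifs described next.
Mrpl39 (chr16:84735245-84735494, minus strand): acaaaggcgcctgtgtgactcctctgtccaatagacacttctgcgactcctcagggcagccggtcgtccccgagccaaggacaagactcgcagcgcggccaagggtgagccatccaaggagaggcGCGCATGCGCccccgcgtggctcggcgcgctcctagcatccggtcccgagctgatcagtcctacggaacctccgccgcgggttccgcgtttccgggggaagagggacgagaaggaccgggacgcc
Mrps22 (chr9:98601680-98601929, minus strand): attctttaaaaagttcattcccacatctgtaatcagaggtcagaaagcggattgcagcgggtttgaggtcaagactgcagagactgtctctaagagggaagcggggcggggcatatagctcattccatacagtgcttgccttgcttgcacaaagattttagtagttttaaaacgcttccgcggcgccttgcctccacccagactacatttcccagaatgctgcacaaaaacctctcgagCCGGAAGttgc
Mrpl3 (chr9:105053018-105053267, plus strand): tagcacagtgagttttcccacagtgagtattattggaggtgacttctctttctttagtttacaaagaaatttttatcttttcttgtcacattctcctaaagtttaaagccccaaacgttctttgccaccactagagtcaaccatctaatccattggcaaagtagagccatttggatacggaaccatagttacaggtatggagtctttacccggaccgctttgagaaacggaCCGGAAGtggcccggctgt
Mrps23 (chr11:88204138-88204387, plus strand): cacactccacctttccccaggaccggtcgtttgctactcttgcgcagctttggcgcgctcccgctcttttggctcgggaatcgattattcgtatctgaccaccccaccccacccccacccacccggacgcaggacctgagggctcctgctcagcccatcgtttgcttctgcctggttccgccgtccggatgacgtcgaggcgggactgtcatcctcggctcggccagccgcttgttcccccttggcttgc

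Windows of 300 bases, from 250 before to 50 after the start, were searched on both strands for 7-letter cores of motifs bound by factors known to act on nuclear genes for mitochondrial proteins. These were CCGGAAG for ETS factors such as GABPA, GCGCATG for NRF1 and AGATGGC for YY1. The table held 75 windows for 69 of the 78 members. Of these windows 26 held the ETS core (34.7%), against 14.4% of windows of all genes tested, 15.8% of those of coding genes tested and 8.86% of all windows in the table. The NRF1 core was in 8 (10.7%, against 5.66% and 3.91%), and the YY1 core in 12 (16%, against 6.95% and 6.4%). Among windows of cytosolic ribosomal proteins 27 of 77 held the ETS core (35.1%), 11.7% the NRF1 core and 14.3% the YY1 core. For windows of nuclear oxidative phosphorylation subunits these shares were 22.7%, 17.3% and 16%. Shares above those of all genes tested were therefore not particular to the members. In Mrpl39 the capitals show overlapping NRF1 cores on opposite strands, 125 and 122 bases before the start. Mrps22 and Mrpl3 each have 1 ETS core, 11 and 19 bases before the start, and the Mrps23 stretch shown has none of the 3 cores, while its full window counts as holding the ETS core, which lies after the start. Members with and without the ETS core had median log2 fold changes of 0.07 and 0.10, and 21 of 26 with it and 38 of 43 without it were above 0. A match is only a match of letters.

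Levels of the members were moderate and spread widely. Mean CPM over the 8 libraries ran from 1.71 (Mrps6) to 41.4 (Mrpl38), with single counts between 27 and 1357 per library. Per kilobase of spliced transcript, the scale on which genes can be compared, the highest levels were those of Mrpl34 (38.7 CPM per kb) and Mrps21 (38.6 CPM per kb), both small conserved proteins, followed by Mrpl17 at 33.0 and Mrpl14 at 32.8. The lowest were Mrps25 at 0.902, Mrps26 at 1.39, Mrpl47 at 1.83 and Mrpl19 at 1.89 CPM per kb. These lengths are medians over annotated coding transcripts, and long rarely used transcripts lower the value of a gene, so the order is approximate. Summed over the members, the Lpcat3 libraries held 1297, 1335, 1370 and 1297 CPM and the eGFP libraries 1244, 1264, 1143 and 1287 CPM. All 4 Lpcat3 sums lay above all 4 eGFP sums on this scale. The closest pair were Lpcat3 replicate 1 at 1297 and eGFP replicate 4 at 1287 CPM. In whole liver, fewer cells of a type and less RNA per cell cannot be told apart.

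Across the whole table, edgeR's quasi-likelihood test called 1 gene at an adjusted p of 0.05 (0.00573% of genes tested), the long noncoding RNA Egfros (named after its value was seen), and 0 of 78 members. The delivered gene, Lpcat3, was 2.37-fold higher (two-sided exact permutation p = 0.0286, the smallest possible here) but had an edgeR adjusted p of 0.164. At an unadjusted p under 0.05, 4 members were higher (5.13%, against 3.3% of all genes) and 0 were lower (against 5.18%). These counts depended on the processing. With library totals in place of TMM, 0 members were higher and 2 lower. With the codes of the sample titles as covariates, 0 were higher and 1 lower. Shares of all genes passing were not taken for these 2 settings, so their counts cannot be set against other genes. Genes above 0 made up 23.1% with library totals and 47.7% with the codes, against 48.5% as reported. DESeq2 called 51 genes (0.292%) and 0 members, and limma-voom called 1 gene (0.00573%) and 0 members. The smallest adjusted p of any member was 0.564 in edgeR, 0.274 in DESeq2 and 0.506 in limma-voom. No single mitochondrial ribosomal protein mRNA was therefore shown to change.

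Most members nevertheless lay slightly above 0. The log2 fold change, Lpcat3 over eGFP, was positive for 68 of 78 members (87.2%), against 48.5% of all genes tested, with a median of 0.10 for the members and -0.01 for all genes. Among the 8478 protein-coding genes within the members' range of mean CPM, 46.6% were positive and the median was -0.01. The quartiles of the members were 0.03 and 0.15, and the extremes -0.24 (Mrpl23) and 0.27 (Mrpl38). The groups did not overlap, with Lpcat3 higher, for 3 members (3.85%, against 1.93% of all genes), and, with Lpcat3 lower, for 1 (1.28%, against 2.24%). These counts describe the list and are not a test of it.

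**Figure D1:**
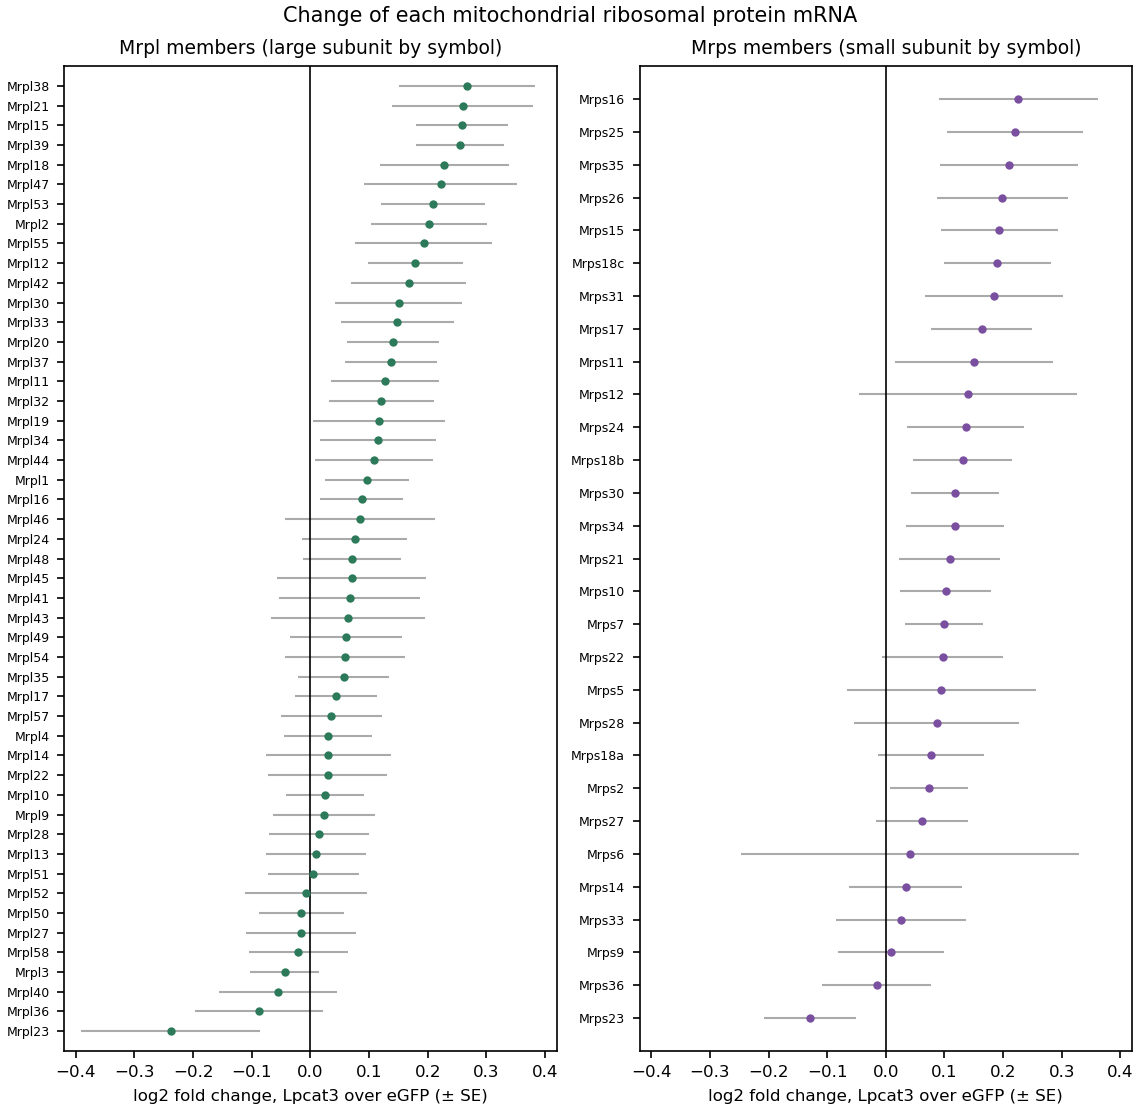
Log2 fold change of each member, Lpcat3 over eGFP, with its standard error from the edgeR fit; the left panel holds the 49 Mrpl and the right panel the 29 Mrps genes, and the vertical line marks 0. With TMM scaling 68 of 78 members lie right of the line, against 48.5% of all genes tested. With library totals 29 do, against 23.1% of all genes. None passed the test across all genes, and the values shown run from -0.24 (Mrpl23) to 0.27 (Mrpl38).

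The direction of this shift depended on how libraries were scaled. With library totals in place of TMM, the median of all genes moved to -0.13 and the median of the members to -0.03. On that scale 29 of 78 members were positive, against 23.1% of all genes tested. The same share is the reference for the other counts above 0 with library totals given here. Library totals shift all genes by about the same amount. The members therefore necessarily stood about as far above the median of all genes with either scaling, by 0.10. As a share of all counts, the members made up 0.134%, 0.125%, 0.121% and 0.127% of the Lpcat3 libraries and 0.135%, 0.130%, 0.128% and 0.121% of the eGFP libraries, so these shares overlapped between the groups. On this scale 2 members, Mrpl39 and Mrpl15, were without overlap and higher, and 2, Mrps23 and Mrps9, without overlap and lower, where 0.573% and 3.7% of all genes were so. TMM and the size factors of DESeq2 gave 68 positive members each.

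**Figure D2:**
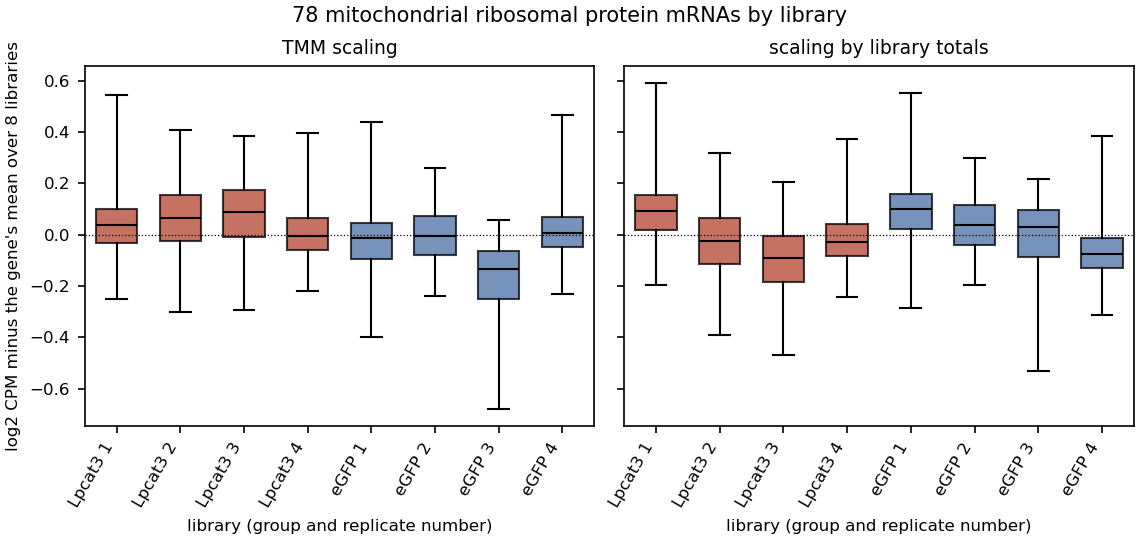
Log2 CPM of the 78 members minus each gene's mean over the 8 libraries, by library, with TMM scaling (left) and with library totals (right); boxes span the quartiles, lines inside them are medians and whiskers reach the extremes. With TMM the median of eGFP replicate 3 was -0.13 and that of Lpcat3 replicate 3 was 0.09, while with library totals they were 0.03 and -0.09.

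With TMM scaling, 1 control library had lower levels of these genes than the other eGFP libraries. In eGFP replicate 3, 4 of 78 members lay above their own mean over the libraries and 40 had their lowest value, whereas in Lpcat3 replicate 3, 57 lay above their mean and 26 had their highest value. The mean deviation of the members from their own means was -0.17 in eGFP replicate 3 and between -0.03 and 0.01 in the other eGFP libraries. In the Lpcat3 libraries it was 0.04, 0.06, 0.08 and 0.01, so that Lpcat3 replicate 4 lay level with eGFP replicate 4 (0.01). Without eGFP replicate 3, 56 members were positive and the median was 0.06, and without both libraries numbered 3 the values were 52 and 0.05. With library totals the mean deviation was -0.004 in eGFP replicate 3 and -0.09 in Lpcat3 replicate 3. The lowest eGFP library on that scale was replicate 4, at -0.07.

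Cell type markers also differed between these libraries. The mean log2 level of the 6 hepatocyte markers, relative to the eGFP mean, was -0.27 in eGFP replicate 3 and 0.52 in Lpcat3 replicate 3, the lowest and the highest of the 8. All 6 had log2 fold changes above 0, with sums of 51426 to 80326 CPM against 40295 to 68978 CPM, but only 3 of 6 did so with library totals. Of 9 macrophage markers (recruited or lipid-associated cells) 8 were below 0, with sums of 134 to 295 CPM against 211 to 451 CPM and a lowest mean level of -1.94 in Lpcat3 replicate 3. Below 0 were also 6 of 6 endothelial markers (318 to 397 against 392 to 428 CPM), 5 of 6 Kupffer cell markers (93.4 to 178 against 173 to 215 CPM) and 5 of 7 stellate cell markers (176 to 334 against 292 to 361 CPM). For the Kupffer cell markers, however, the mean level in Lpcat3 replicate 3 was 0.31, the highest of the 8. In the other Lpcat3 libraries it was -0.39, -0.89 and -1.05. Among blood cells, below 0 were 4 of 5 T and NK cell markers (2.31 to 3.74 against 2.21 to 6.99 CPM), 5 of 5 B and plasma cell markers (2.40 to 3.87 against 3.06 to 5.07 CPM) and 3 of 3 neutrophil markers (4.79 to 7.79 against 7.19 to 19.3 CPM). Cholangiocyte markers were above 0 in 4 of 5 cases (38.9 to 125 against 37.7 to 85.4 CPM). Spp1 is in this list and also in the macrophage list. It made up most of the cholangiocyte sums, with 12244 counts over the libraries against 1710 for Sox9, the next highest. None of these markers passed the test. Cd3d and Retnlg had too few counts to be tested, and Ly6g, which defines neutrophils, was at 0 in 7 of 8 libraries. The part of these cell types in the values of the ribosomal proteins was not tested.

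Sample titles also hold codes (1290, 1317, 1344 and 1345) that the labels leave unexplained, and these are spread unevenly over the groups. Within codes 1290 and 1317 (1 Lpcat3 and 3 eGFP libraries) 63 members were above 0 with a median log2 difference of 0.10. Of all genes 48.5% were above 0 there, with a median of -0.007. The only library with code 1317 is eGFP replicate 3, in which the members were low (mean deviation -0.17). Within 1344 and 1345 (3 Lpcat3 and 1 eGFP library) 50 members were above 0 with a median of 0.04, against 48.2% of all genes. Entering the code numbers as covariates left 51 members above 0 with a median of 0.03, against 47.7% of all genes. That estimate comes only from codes 1290 and 1345, which hold both groups.

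Members of the large subunit led the list by p-value. Mrpl39, a protein without a bacterial ribosomal counterpart that resembles part of threonyl-tRNA synthetase, was at 30.3, 32.5, 34.3 and 30.7 CPM in the Lpcat3 libraries and at 26.4, 27.6, 24.1 and 28.9 CPM in the eGFP libraries. The groups did not overlap, and eGFP replicate 3 was the lowest. Lpcat3 libraries averaged 31.9 ± 1.84 and eGFP libraries 26.7 ± 2.01 CPM (SD, n = 4 per group). On the log2 scale the difference was 0.26 with an SE of 0.08, and the adjusted p from edgeR was 0.564.

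Mrpl15, a counterpart of bacterial L15, was at 37.9, 38.3, 44.6 and 38.9 CPM in the Lpcat3 libraries and at 32.4, 33.5, 31.0 and 36.6 CPM in the eGFP libraries. Here too the groups did not overlap, with Lpcat3 replicate 3 far above the other Lpcat3 libraries. Its log2 fold change was also 0.26 (SE 0.08; edgeR adjusted p = 0.564).

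Mrpl12 belongs to the stalk that recruits translation factors and is also known to bind the mitochondrial RNA polymerase. It was at 38.0, 43.6, 43.9 and 37.9 CPM against 37.1, 37.5, 32.1 and 37.7 CPM. These groups were separated by a small gap only, between Lpcat3 replicate 4 at 37.9 and eGFP replicate 4 at 37.7 CPM, and eGFP replicate 3 lay well below the rest. Its log2 fold change was 0.18 (SE 0.08; p adjusted in edgeR 0.591), and 0.12 without eGFP replicate 3. It was 0.02 with the code numbers as covariates. Its stalk partners were closer to 0, with Mrpl10 at 0.03 and Mrpl11, of the stalk base, at 0.13.

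Mrpl38, which contains a domain of the phosphatidylethanolamine-binding protein family, had the highest CPM of the members. It was at 36.6, 43.4, 46.6 and 54.0 CPM in the Lpcat3 libraries and at 33.6, 37.0, 38.2 and 41.4 CPM in the eGFP libraries. The groups overlapped, since Lpcat3 replicate 1 lay below 3 eGFP libraries. On the log2 scale it differed by 0.27 (SE 0.12; p adjusted in edgeR 0.587), and by 0.17 without Lpcat3 replicate 4, and by 0.02 within the title codes 1290 and 1317 against 0.21 within 1344 and 1345.

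Mrpl53, another protein without a bacterial counterpart, was at 14.1, 14.8, 13.3 and 14.4 CPM against 11.9, 12.3, 11.0 and 13.8 CPM. Only eGFP replicate 4 reached into the Lpcat3 range. Its log2 fold change was 0.21 (SE 0.09; p adjusted in edgeR 0.581). Its gene overlaps that of Ccdc142, and whether counting used strand is not given in the sources used here, so some of its reads are uncertain.

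Mrpl21 and Mrpl18, both conserved proteins, had log2 fold changes of 0.26 and 0.23 with overlapping groups (edgeR adjusted p = 0.597 and 0.603). Mrpl18 was at 25.7, 25.0, 31.8 and 24.6 CPM in the Lpcat3 libraries and at 23.4, 24.1, 19.2 and 24.7 CPM in the eGFP libraries. Lpcat3 replicate 3 was the highest and eGFP replicate 3 the lowest, and the value was 0.06 without both. Mrpl21 overlaps Ighmbp2 and Mrpl18 overlaps Tcp1, so their counts carry the same doubt about strand. In all, 20 of the 78 members overlap another coding gene, and among those given here this also holds for Mrps2, Mrpl44, Mrps18a, Mrpl14, Mrps25, Mrpl19, Mrpl43, Mrps6 and Mrps23.

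**Figure D3:**
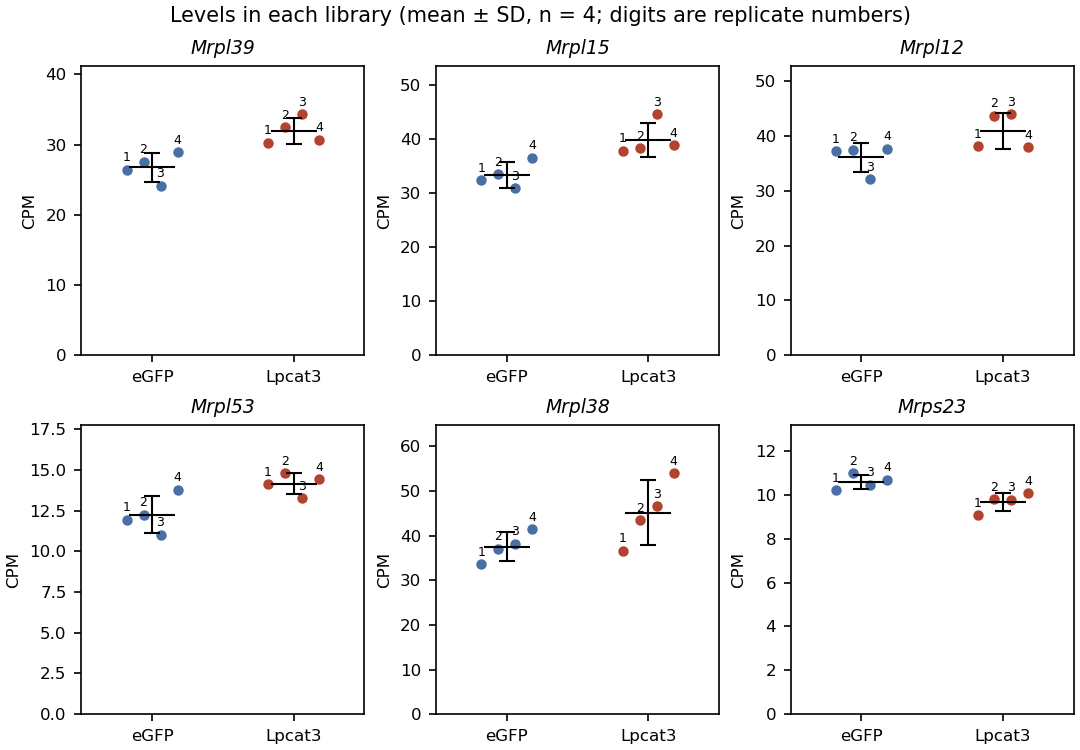
Levels of 6 members in CPM in each library; points are libraries, digits replicate numbers, and bars the mean ± SD (n = 4 per group), with axes starting at 0. Lpcat3 libraries lie above all eGFP libraries for Mrpl39, Mrpl15 and Mrpl12 and below all of them for Mrps23, while Mrpl53 and Mrpl38 overlap.

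Other large subunit proteins with known roles lay closer to 0. Mrpl3, a conserved core protein, was at 24.4, 26.4, 24.6 and 24.3 CPM in the Lpcat3 libraries and at 26.3, 25.7, 25.0 and 25.9 CPM in the eGFP libraries. Its log2 fold change was -0.04, and its SE of 0.06 was the smallest of all members. Mrpl58, the peptidyl-tRNA hydrolase that rescues stalled ribosomes, was at 19.0, 16.4, 17.1 and 18.1 against 18.9, 19.3, 16.1 and 17.3 CPM, with a log2 fold change of -0.02 (SE 0.08). Mrpl44, which has a ribonuclease III-like fold, stood at 0.11 (SE 0.10), and Mrpl45, at the exit tunnel facing the inner membrane, at 0.07 (SE 0.13). With the code numbers as covariates Mrpl45 turned to -0.20.

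The small subunit had 27 of 29 members above 0, with a median of 0.11, and the large subunit 41 of 49, with a median of 0.07. With library totals these became 12 of 29 and 17 of 49, against 23.1% of all genes. The difference between the subunits was not tested. Symbols do not follow the structure in every case, because Mrps18a and Mrps30 encode proteins that sit in the large subunit. Members with a counterpart in bacteria were above 0 in 42 of 46 cases (median 0.10) and those without one in 26 of 32 (median 0.08), and with library totals in 19 and 10.

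Among small subunit proteins, Mrps18c, 1 of 3 related S18 proteins, was at 13.2, 15.3, 15.9 and 14.6 CPM in the Lpcat3 libraries and at 12.8, 11.6, 13.1 and 14.1 CPM in the eGFP libraries. Lpcat3 replicate 1 lay below eGFP replicate 4, so the groups overlapped. Its log2 fold change was 0.19 (SE 0.09; p adjusted in edgeR 0.603), beside 0.13 for Mrps18b and 0.08 for Mrps18a. The differences between the 3 genes were not tested.

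Mrps34, needed for a stable small subunit, was at 14.3, 14.3, 14.4 and 14.2 CPM in the Lpcat3 libraries, an SD of 0.0946. In the eGFP libraries it was at 14.3, 14.1, 11.8 and 12.6 CPM. The Lpcat3 libraries were thus close together and level with eGFP replicates 1 and 2, while eGFP replicates 3 and 4 were low. On the log2 scale the groups differed by 0.12 (SE 0.08; p adjusted in edgeR 0.671).

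Mrps2, a conserved protein, was at 36.5, 37.1, 37.7 and 34.8 CPM against 36.5, 35.7, 31.4 and 35.2 CPM, with eGFP replicate 3 again lowest and the other values intermixed. Mrps16, whose loss causes a respiratory chain defect, was at 5.94, 5.52, 7.00 and 6.36 CPM against 4.99, 5.43, 4.49 and 6.32 CPM. All but eGFP replicate 4 among the controls lay below the lowest Lpcat3 library, and the log2 fold change was 0.23 (SE 0.14; p adjusted in edgeR 0.648). Mrps35 stood at 0.21 (SE 0.12), but at 0.11 without Lpcat3 replicate 3 and at 0.03 with the code numbers as covariates. Mrps22, another disease gene, stood at 0.10 (SE 0.10), Mrps30 at 0.12 (SE 0.08) and the pentatricopeptide repeat protein Mrps27 at 0.06 (SE 0.08).

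Counts were low for some members. Mrps12, a protein of the decoding centre, was at 5.16, 6.01, 3.84 and 4.18 CPM against 4.60, 4.17, 3.38 and 5.29 CPM, from 80 to 136 counts per library, and its log2 fold change of 0.14 had an SE of 0.19. Without Lpcat3 replicate 2 the value for Mrps12 was 0.01, and without eGFP replicate 4 it was 0.25. Mrps6, the least abundant member with 27 to 58 counts, was at 0.04 with an SE of 0.29, and its gene overlaps Slc5a3.

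Of the 10 members below 0, Mrps23, a protein without a bacterial counterpart, was the 1 whose groups did not overlap. It was at 9.08, 9.81, 9.78 and 10.1 CPM in the Lpcat3 libraries and at 10.2, 11.0, 10.5 and 10.7 CPM in the eGFP libraries. On the log2 scale it differed by -0.13 (SE 0.08; p adjusted in edgeR 0.650), and it stayed between -0.25 and -0.10 over all 21 settings tried. Its gene overlaps Cuedc1, so reads may be shared.

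Mrpl23, near the exit tunnel, was lowest at -0.24 (SE 0.15; edgeR adjusted p = 0.662), from 5.34, 4.28, 4.94 and 5.09 against 5.07, 5.88, 4.90 and 7.35 CPM. Only eGFP replicates 2 and 4 lay above the Lpcat3 range, and without eGFP replicate 4 the value was -0.10. Mrpl36 stood at -0.09 (SE 0.11), Mrpl40 at -0.06 (SE 0.10) and Mrpl50 at -0.02 (SE 0.07). Mrps36, at -0.02 (SE 0.09), carries a ribosomal name but is known as a component of the 2-oxoglutarate dehydrogenase complex.

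The members also varied together within the groups. Over deviations from the group means, Pearson's r was positive for 69.8% of the 3003 pairs of members, with a median of 0.24, against 50% of all pairs of genes. The highest mean r with the other members was that of Mrps5 (0.43), followed by Mrps2 (0.42), Mrpl1 (0.41), Mrpl12 (0.41) and Mrpl39 (0.41), and the lowest that of Mrpl43 (-0.22), Mrpl54 (-0.21) and Mrpl16 (-0.20). These values rest on 8 libraries that share their scaling and the low eGFP replicate 3.

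Proteins that work with the mitochondrial ribosome were measured in the same fit, with 0 genes past the test. Of 5 ribosomal proteins with other symbols 4 were above 0, with a median of 0.12. Ptcd3, a pentatricopeptide repeat protein of the small subunit, was at 47.8 ± 4.40 against 41.4 ± 2.85 CPM (SD, n = 4 each), and the GTP-binding Dap3 at 17.9 ± 0.445 against 16.5 ± 0.675 CPM, without overlap. Of 29 factors for assembly and rRNA modification 25 were above 0 (median 0.07), among them Afg3l2, a protease that matures Mrpl32, at 60.2 ± 3.17 against 54.0 ± 2.47 CPM without overlap, and Rbfa, a small subunit assembly factor, at 4.75 ± 0.271 against 3.83 ± 0.595 CPM. Below 0 on the log2 scale were Chchd1 (-0.0075) among the ribosomal proteins with other symbols and 4 assembly factors. These included Rpusd4 at -0.13, Ddx28 at -0.06 and Trub2 at -0.04. With library totals 2 of 5 ribosomal proteins with other symbols and 9 of 29 assembly factors were above 0, with medians of -0.0026 and -0.05.

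Of 15 genes of mitochondrial transcription and RNA processing 12 were above 0 (median 0.11). Tbrg4, a FASTK family protein that acts on mitochondrial mRNA, was at 23.3 ± 1.86 against 19.5 ± 1.63 CPM, and the helicase Supv3l1 at 15.7 ± 0.576 against 13.7 ± 1.15 CPM, without overlap. Fastkd3, in the other direction, was at 5.10 ± 0.384 against 5.68 ± 0.274 CPM. The smallest adjusted p in the list was 0.564 in edgeR. With library totals 7 of 15 were above 0 (median -0.01).

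Translation factors and synthetases lay closer to all genes. Of 19 translation factors and partners 13 were above 0 (median 0.03). Oxa1l, which inserts new proteins into the inner membrane, was at 30.6 ± 2.21 against 27.5 ± 1.31 CPM. Lrpprc, which stabilises mitochondrial mRNA, was at 136 ± 12.0 against 119 ± 14.5 CPM. Among the 6 below 0 were Tsfm at -0.10, Mrrf at -0.03 and Pdf at -0.03 on the log2 scale. Of 22 genes in the list of mitochondrial aminoacyl-tRNA synthetases 14 were above 0 (median 0.03), from Pars2 at -0.30 to Nars2 at 0.22. That list includes Qrsl1, Gatb and Gatc, which encode amidotransferase subunits, and Gars and Kars, which also serve the cytosol. Of 11 regulators of nuclear genes for mitochondrial proteins 9 were above 0 (median 0.03). The coactivator Ppargc1a was at 25.4 ± 9.68 against 17.7 ± 4.65 CPM (edgeR adjusted p = 0.625), Gabpa at 56.0 ± 5.51 against 51.1 ± 4.29 CPM, and Nrf1 at 17.5 ± 1.15 against 18.3 ± 1.87 CPM. With library totals 3 translation factors, 3 genes of the synthetase list and 4 regulators were above 0, with medians of -0.08, -0.09 and -0.09.

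Cytosolic ribosomal proteins, which share the function but act outside mitochondria, did not lie on the same side. Of 81 tested 22 were above 0 (27.2%), with a median of -0.03 and 0 past the test. Nuclear subunits of oxidative phosphorylation, whose mitochondrial partners the mitochondrial ribosome makes, were above 0 in 76 of 81 cases (median 0.08). With library totals 2 of 81 cytosolic ribosomal proteins and 19 of 81 oxidative phosphorylation subunits were above 0, against 23.1% of all genes. Relative to the median of all genes the cytosolic list stood at -0.03 and the oxidative phosphorylation list at 0.09 with either scaling, beside 0.10 for the mitochondrial ribosomal proteins. Scaling shifts all genes about equally, so equal values under both scalings are no check of these positions. The difference between these lists was not tested. By library, relative to the eGFP mean, the oxidative phosphorylation list was lowest in eGFP replicate 3 (-0.14) and highest in Lpcat3 replicate 3 (0.18), the same libraries as for the mitochondrial ribosomal proteins (-0.12 and 0.13).

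**Figure D4:**
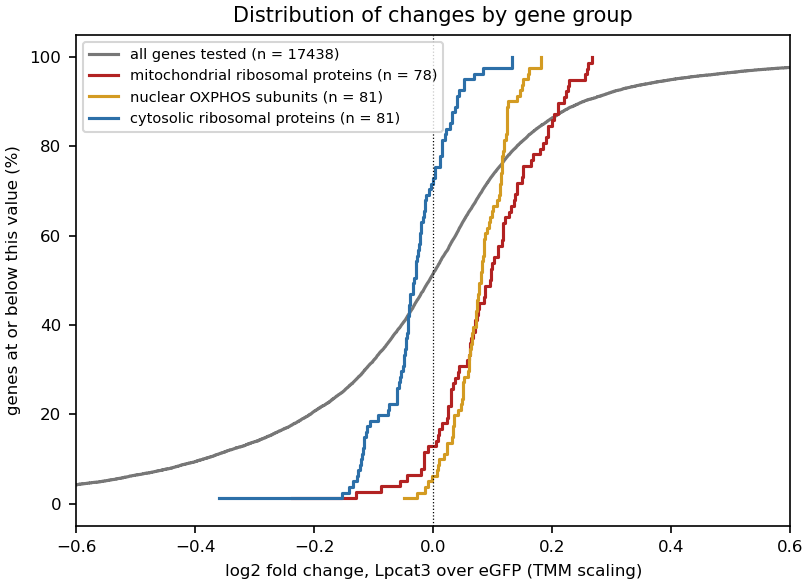
Cumulative distribution of log2 fold changes (x axis, Lpcat3 over eGFP with TMM scaling) for all genes tested and for 3 lists; the y axis gives the percentage of genes at or below each value. The curves of mitochondrial ribosomal proteins (median 0.10) and oxidative phosphorylation subunits (median 0.08) lie right of 0 and that of cytosolic ribosomal proteins (median -0.03) slightly left; with library totals all 3 medians are below 0.

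Over 21 settings, counting the reported one, 27 members stayed above 0 and 5 below 0 in every setting, and 46 changed sign in at least 1. Those below 0 throughout were Mrps23, Mrpl23, Mrpl3, Mrpl36 and Mrpl40. Those above 0 throughout included Mrpl39, Mrpl15, Mrpl12, Mrpl38, Mrpl53, Mrpl21, Mrpl18, Mrps16, Mrps18c and Mrps35. Their sizes varied over these settings, from 0.13 to 0.29 for Mrpl39, from 0.14 to 0.31 for Mrpl15, from 0.02 to 0.21 for Mrpl12 and from 0.11 to 0.35 for Mrpl38.

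**Figure D5:**
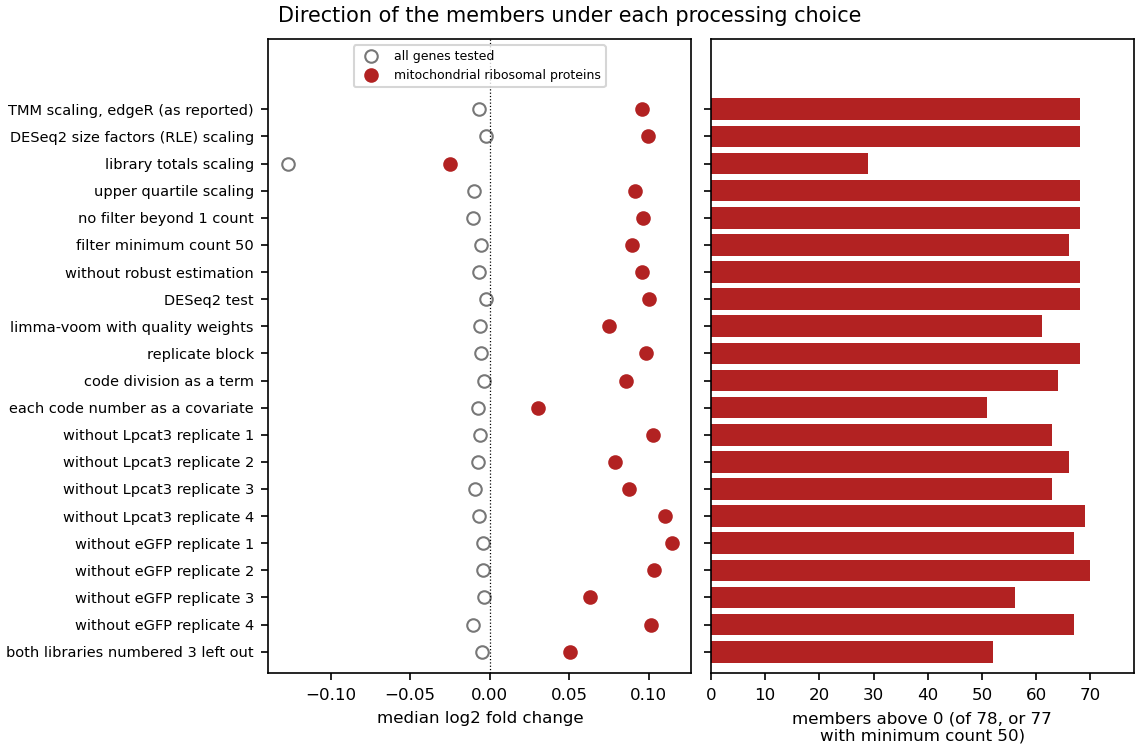
Median log2 fold change of the members and of all genes tested (left) and the number of members above 0 (right) under each of 21 settings. The median of the members is above 0 in 20 settings and at -0.03 with library totals, where the median of all genes is at -0.13.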

How the data were processed

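Liver RNA of 4 Lpcat3 and 4 eGFP libraries was measured by single-end RNA sequencing of stranded libraries after removal of ribosomal RNA, per the labels' protocols. The authors deposited 1 table of raw counts per NCBI gene number, not normalized. Build GRCm39, bcl2fastq 2.20 and DESeq2 (no version) appear in the submitters' processing notes. For aligner, counter and strand handling nothing is given in the sources used here. Symbols came from a RefSeq table of GRCm38, which matched 39397 of 40838 rows holding 99.5% of counts. Columns were joined to samples by the codes in the titles.

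Genes were filtered with filterByExpr (minimum count 10), scaled with TMM and compared in R 4.3.3 by the two-sided quasi-likelihood test of edgeR 4.0.16, group as the only term, with Benjamini-Hochberg adjustment over 17438 genes and calls at 0.05. Log2 CPM used a prior count of 2. The steps were tested on simulated data. Mean levels per kilobase used median spliced lengths of coding transcripts in GENCODE M21. Alternatives were other scalings, filters, DESeq2 1.42.0, limma-voom (limma 3.58.1), libraries left out, a replicate block and code terms. Library totals for the other gene lists were added after seeing the data.

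Members and gene lists were chosen with earlier results of these data known. Named members were the 8 with the smallest p in each direction, the 4 highest and lowest by CPM and by CPM per kilobase, and members with fixed roles. From each other list up to 3 genes per direction by p could be named. Mrps5, Mrps9, Mrpl1, Mrpl43 and Mrpl54 were named after their values were seen.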

Additional observations from a re-analysis of the deposited data

Results flagged for a closer look

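In 7 of 90 groups of 4 libraries that were checked, 1 library lay far from the other 3, by the 95% limit of Dixon's gap ratio. Chance gives about 1 such group in 20. Lpcat3 replicate 3 was high for Mrpl15, at 44.6 CPM against 37.9 to 38.9 CPM in the other Lpcat3 libraries. It was also high for Mrpl18, at 31.8 against 24.6 to 25.7 CPM, and for Mrpl14, at 25.6 against 19.6 to 20.3 CPM. eGFP replicate 3 was low for Mrpl12, at 32.1 against 37.1 to 37.7 CPM. Mrpl3 was high in Lpcat3 replicate 2, at 26.4 against 24.3 to 24.6 CPM. Mrps6 was high in Lpcat3 replicate 1, at 2.45 against 1.44 to 1.55 CPM, and Mrps22 in eGFP replicate 2, at 14.8 against 11.8 to 12.3 CPM.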

How the results depend on the processing

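No member was called in either direction under any of the 20 alternatives. Genes called over the whole table were 1 as reported, 3 with library totals, 2 without robust estimation and 51 with DESeq2. They were 0 without a filter beyond 1 count, with the replicate block, with the code division as a term, with the code numbers as covariates and on leaving out both libraries numbered 3, and 0 to 7 (without Lpcat3 replicate 1) on leaving out single libraries. Members above 0 numbered 68, or 29 with library totals, and 56 (without eGFP replicate 3) to 70 (without eGFP replicate 2) on leaving out single libraries. With library totals 23.1% of all genes were above 0. Their median was 0.10, or -0.025 with library totals, 0.030 with the code numbers as covariates and 0.063 to 0.11 on leaving out single libraries. The replicate block, in which 68 members were above 0 with a median of 0.098, changed no member's call. Over deviations from the group means, same-numbered libraries had r = 0.28, -0.07, -0.40 and -0.12 for numbers 1 to 4. Of the Lpcat3 libraries, 1 of 4 correlated best with its own number. So few values cannot exclude that the numbers pair the libraries. Libraries numbered 1 carry code 1290 in both groups, and those numbered 4 carry code 1345. Values on the log2 scale follow for those members that were fixed for naming and turned sign, each set being part of a larger count. With library totals 39 of 78 members turned sign, among them Mrpl16 -0.030, Mrps6 -0.065, Mrps28 -0.033, Mrps21 -0.0088, Mrpl17 -0.082, Mrpl14 -0.091, Mrpl19 -0.010, Mrpl10 -0.094, Mrpl44 -0.010, Mrpl45 -0.047, Mrps18a -0.042, Mrps2 -0.045, Mrps22 -0.025, Mrps34 -0.0026, Mrps27 -0.057 and Mrps30 -0.0054. With limma-voom 7 did, among them Mrps6 -0.068, Mrpl14 -0.020 and Mrpl10 -0.00064. With the code division as a term 12 did, among them Mrpl58 0.030, Mrpl50 0.026, Mrps36 0.014, Mrpl14 -0.057 and Mrpl45 -0.11. With the code numbers as covariates 23 did, among them Mrpl58 0.025, Mrpl50 0.055, Mrps28 -0.032, Mrps12 -0.0079, Mrpl17 -0.011, Mrpl14 -0.14, Mrpl19 -0.024, Mrpl11 -0.0087 and Mrpl45 -0.20. Without both libraries numbered 3, 18 did, among them Mrps6 -0.069, Mrpl17 -0.00077, Mrpl14 -0.11, Mrpl10 -0.013 and Mrpl45 -0.047. On leaving out single libraries 1 (without Lpcat3 replicate 4) to 12 (without eGFP replicate 3) did, and of the members fixed for naming the ranges that crossed 0 were Mrpl58 -0.069 to 0.018, Mrpl50 -0.044 to 0.027, Mrps36 -0.053 to 0.018, Mrps6 -0.17 to 0.22, Mrpl14 -0.066 to 0.079, Mrpl10 -0.011 to 0.066 and Mrpl45 -0.0093 to 0.16. The medians of other gene lists that turned sign with library totals were mitochondrial aminoacyl-tRNA synthetases -0.094, mitochondrial transcription and RNA processing -0.011, mitochondrial translation factors -0.079, mitoribosomal proteins outside the symbol rule -0.0026, mitoribosome assembly and rRNA modification -0.045, nuclear oxidative phosphorylation subunits -0.038 and regulators of nuclear mitochondrial genes -0.094. Library totals lower all log2 fold changes by about the same shift (all genes: median -0.13), and the cause of the other sign changes was not tested. With a minimum count of 50, 1 of 77 members turned sign. Mrps6 had 27 to 58 counts per library.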
